A study of Mus musculus with 16 samples.

Results

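The 35 genes described here code for enzymes and regulators of glycolysis and for parts of the cell's response to low oxygen. They were taken by symbol from an RNA sequencing table of 56268 genes measured in colonic epithelial cells of mice. They fill 36 rows of that table, because Aldoa is listed under a pair of gene identifiers. Eno1 and Eno1b are nearly identical in sequence, so their values were summed and treated as 1 feature, which leaves 35 features. Of these, 32 reached at least 1 FPKM (fragment counts corrected for gene length and sequencing depth) in at least 4 of the 16 libraries and entered the tests, as did 13254 features of the whole table. The 3 that did not were P4ha2 at 0.402 to 1.08 FPKM, the lactate exporter gene Slc16a3 at 0.230 to 0.931 FPKM, and Eno2, the neuronal enolase gene, at 0 to 0.121 FPKM.

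The study compared 4 groups of 4 libraries: cKO_DSS, WT_DSS, cKO and WT. The cKO and cKO_DSS mice are labelled Rictor Flox; Villin-Cre. The WT and WT_DSS mice are labelled Villin-Cre, so every group carried this transgene, in which the villin promoter drives Cre recombinase in intestinal epithelium. Rictor codes for a subunit found only in mTOR complex 2, which is known for phosphorylating the kinase AKT. The DSS groups drank 3% dextran sulfate sodium, a polymer that injures the colonic epithelium and causes colitis, and the cKO and WT groups drank plain water. How long DSS was given is not stated in the labels. The labels give neither ages nor sexes, and do not say whether the libraries of a group came from separate animals. The p-values thus speak of the spread among these libraries, which differed by more than counting noise in every group.

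Glycolysis turns glucose into pyruvate, which is either reduced to lactate or burned in mitochondria. When oxygen is low, prolyl hydroxylases stop marking the transcription factor HIF-1 for destruction, and HIF-1 raises the transcription of many glycolytic genes and of genes for blood vessel growth, pH control and mitophagy. The epithelium at the surface of the colon faces an almost oxygen-free lumen, and HIF is known to help it hold its barrier.

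The libraries held 13911823 to 16414914 reads each, recovered from the deposited values. Rictor, the targeted gene, averaged 2.51 ± 0.464 FPKM in cKO_DSS and 3.63 ± 0.572 FPKM in WT_DSS, and 2.47 ± 0.238 FPKM in cKO and 2.80 ± 0.442 FPKM in WT (SD, n = 4 each). Neither difference passed the test (log2 difference -0.40, adjusted p = 0.0763 after DSS, and -0.13, adjusted p = 0.582 on water, limma). The values count reads over the whole gene, and which exons were deleted is not stated in the labels. The 10 epithelial markers summed to 8035 to 10720 FPKM in cKO_DSS, 7349 to 8558 in WT_DSS, 7798 to 8355 in cKO and 8216 to 10240 in WT. Of these 10, 1 rose in cKO_DSS against WT_DSS, 2 rose in cKO_DSS against cKO and 2 fell in WT_DSS against WT. Of other cell types, 9 fibroblast markers summed to 12.8 to 14.8 FPKM in cKO_DSS, 15.9 to 19.4 in WT_DSS, 7.84 to 9.58 in cKO and 6.37 to 10.1 in WT. The sum of 9 macrophage and monocyte markers was 71.2 to 104 FPKM in cKO_DSS, 66.7 to 80.8 in WT_DSS, 39.8 to 60 in cKO and 36.1 to 49.4 in WT. The sum of 6 neutrophil markers was 39.9 to 76.7 FPKM in cKO_DSS, 31.6 to 39.4 in WT_DSS, 38.4 to 63.3 in cKO and 46.9 to 58.6 in WT. Only 1 of these 6 reached 1 FPKM in at least 4 libraries, so this sum is not a level shared by the 6. Of the fibroblast markers tested, 5 of 6 rose in WT_DSS against WT and 4 of 6 in cKO_DSS against cKO, and 1 of 6 fell in cKO_DSS against WT_DSS. Of the macrophage and monocyte markers tested, 3 of 5 rose and 1 fell in WT_DSS against WT, and 3 of 5 rose in cKO_DSS against cKO. The 1 neutrophil marker tested fell in WT_DSS against WT. The 1 tested for B and plasma cells and the 1 tested for erythroid cells rose there. The 2 T cell markers and 1 smooth muscle marker tested were called in no comparison of 2 groups. Over all features, 15% rose and 13.5% fell in WT_DSS against WT, and 8.07% rose in cKO_DSS against cKO. In cKO_DSS against WT_DSS 2.0% rose and 1.63% fell. No marker of the epithelial, fibroblast and macrophage lists was at 0 in all libraries of a group. Of the 6 neutrophil markers, 4 were at 0 in all libraries of cKO_DSS, 1 in WT_DSS, 3 in cKO and 2 in WT. Mitochondrial genes held 4.74 to 6.95% of reads in cKO_DSS, 5.56 to 7.34% in WT_DSS, 7.67 to 15.1% in cKO and 7.66 to 11.3% in WT, so every DSS library lay below every library on water. The part of these cells and of the mitochondrial share in the results was not tested. In bulk samples, fewer cells of a type and less RNA per cell cannot be told apart.

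Libraries cKO_DSS 3 and 4 stood apart from the other 14 on the second principal component of all genes, at -33.9 and -32.2, against -17.0 to 21.2 elsewhere. Reads of 4 Y-linked genes numbered 2924 to 4533 in cKO_DSS and 2681 to 3533 in WT_DSS, but 0 to 1856 in cKO and 0 to 1377 in WT, with none in WT 3, cKO 3 and cKO 4. Xist, transcribed from the inactive X chromosome, was at 0 to 0.0141 FPKM in cKO_DSS and 0.00402 to 20.5 in WT_DSS, but at 44.7 to 105 in cKO and 33.2 to 64.9 in WT. Y-linked reads were higher, and Xist lower, in every DSS library than in every library on water. An effect of DSS thus cannot be told apart from this difference when DSS is compared with water. With the Y-linked reads as a covariate, chosen after seeing the data, 4 of the 8 calls made below for WT_DSS against WT remained (Vegfa, Egln3, Bnip3l and Pkm) and 1 of the 4 for cKO_DSS against cKO (Hk2), where the covariate left 16.1 and 4.08% of all features called. The plot of deviations by library shows how the 32 features varied over the 16 libraries.

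**Figure D1:**
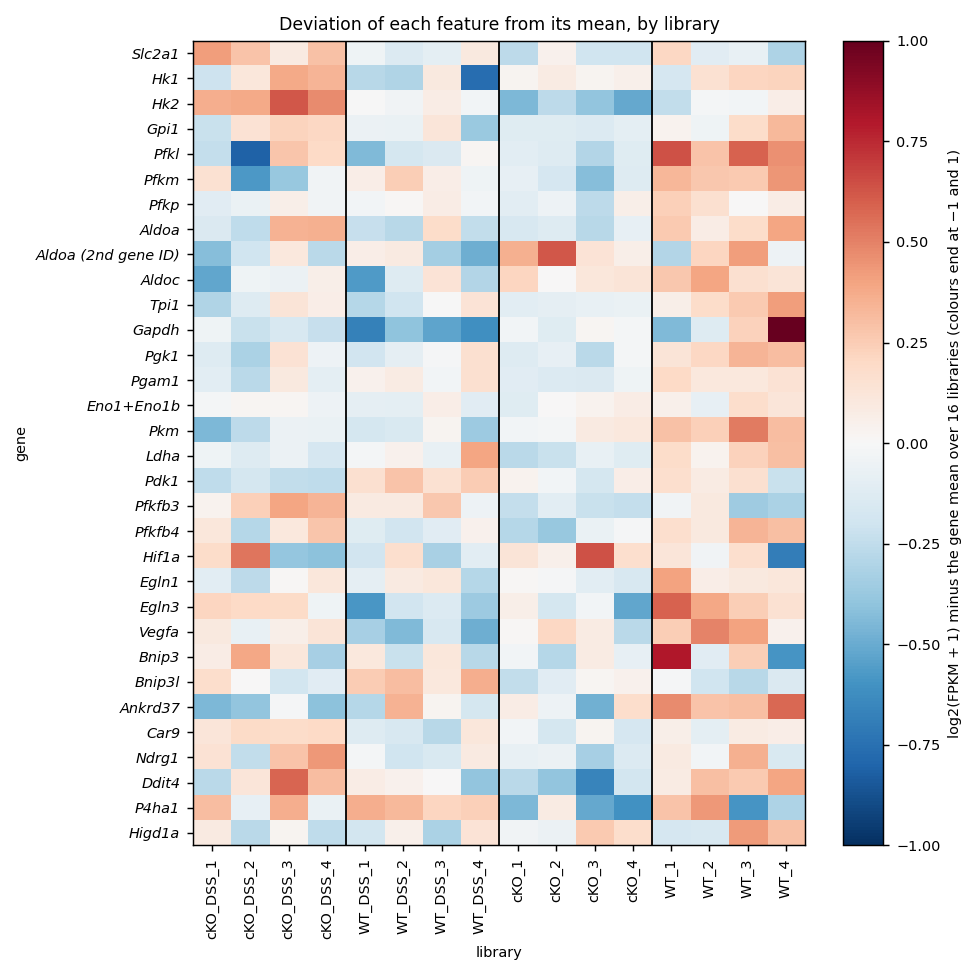
Each row is 1 of the 32 features and each column 1 library. Colour gives log2(FPKM + 1) minus the feature's mean over the 16 libraries, and black lines part the groups cKO_DSS, WT_DSS, cKO and WT. The cKO columns are mostly blue and the WT columns mostly red: 8 to 12 of the 32 features lay above their mean in each cKO library, against 21 to 27 in each WT library.

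In WT epithelium the set was led by Ldha, whose product reduces pyruvate to lactate, at 341 ± 26 FPKM, and by the fructose bisphosphate aldolase gene Aldoa at 335 ± 31.7 FPKM (SD, n = 4, as below). Their ranges overlapped, so their order is not settled. The triosephosphate isomerase gene Tpi1 at 167 ± 17.6 FPKM and the pyruvate kinase gene Pkm at 163 ± 14.3 FPKM came next, and their ranges overlapped too. Isoforms were used unequally. Of the phosphofructokinase genes, Pfkl held 34.2 ± 3.72 FPKM in WT, Pfkp 15.8 ± 1.19 FPKM and Pfkm 2.59 ± 0.215 FPKM. The hexokinase genes Hk1 and Hk2 stood near each other in WT, at 29.4 ± 3.67 and 30.1 ± 2.83 FPKM. Of the oxygen-response genes, Higd1a, a mitochondrial protein gene induced in hypoxia, had 45.5 ± 9.93 FPKM and Car9, which codes for a cell-surface carbonic anhydrase, 31.9 ± 1.81 FPKM. At the other end, Bnip3 and Pfkfb3 averaged 1.45 ± 0.997 and 0.572 ± 0.24 FPKM.

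Comparing genotypes after DSS, 1 of the 32 features rose in cKO_DSS and 1 fell, where 3.63% of all features tested were called (2.0% higher, 1.63% lower). Hk2, the hexokinase that traps glucose in the cell, was higher at 43.4 ± 3.7 FPKM in cKO_DSS, against 31.3 ± 1.1 FPKM in WT_DSS. Pdk1, a kinase that shuts pyruvate out of the mitochondrial pyruvate dehydrogenase reaction, was lower at 6.13 ± 0.194 FPKM in cKO_DSS, against 8.72 ± 0.433 FPKM in WT_DSS. A feature was called at an adjusted p under 0.05 (limma on log2(FPKM + 1), Benjamini-Hochberg over 13254 features). The median log2 difference of the 32 was +0.062, against -0.0063 over all features, and 19 of 32 lay above 0. At an unadjusted p under 0.05 there were 8 of 32, where 20.2% of all features passed. In 5 features all 4 cKO_DSS values lay above all 4 WT_DSS values, and in 1 all lay below, where 5.12 and 4.87% of all features did so. Without cKO_DSS 3 and 4, none of the 32 was called, and both calls missed at adjusted p = 0.129 (Hk2 +0.37, Pdk1 -0.43). In that fit 0.249% of all features were called. The median of the 32 was then -0.036. Neither Hk2 nor Pdk1 was called without WT_DSS 2 (adjusted p = 0.0507 and 0.0636), and Pdk1 missed without cKO_DSS 3 (adjusted p = 0.0512). Those fits called 0.589 and 0.807% of all features.

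On water, 0 of the 32 features were called between cKO and WT by limma, where 0.0905% of all features were (0.0528% higher, 0.0377% lower). Most members nevertheless had lower values in cKO: 29 of 32 log2 differences lay below 0, with a median of -0.25, against 48.67% of all features and a median of +0.0081. At an unadjusted p under 0.05 there were 16 of 32, while 18.1% of all features passed that mark. In 15 features, all 4 cKO values lay below all 4 WT values (7.65% of all features), and in 0 did all lie above (7.85%). The 3 smallest p-values belonged to Hk2, to Ddit4, which codes for an inhibitor of mTOR complex 1, and to Egln3, which codes for a HIF prolyl hydroxylase. None of the 32 was called by limma voom on recovered reads either, whereas sample quality weights called 6, all lower in cKO, where that setting called 2.07% of all features. Without cKO_DSS 2, 1 was called, also lower, where 0.837% of all features were.

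Comparing WT mice with and without DSS, 7 of the 32 features fell in WT_DSS and 1 rose, where 28.5% of all features tested were called (13.5% lower, 15% higher). Those that fell were the glycolytic genes Pfkl, Aldoc, Tpi1 and Pkm, the regulator Pfkfb4, and the oxygen-response genes Egln3 and Vegfa. The 1 that rose was Bnip3l, a mitophagy receptor gene. In FPKM, the largest of these differences was that of Pkm, at 114 ± 12.8 FPKM in WT_DSS and 163 ± 14.3 FPKM in WT. The median log2 difference was -0.22, against -0.0051 over all features, and 26 of 32 lay below 0. At an unadjusted p under 0.05 there were 13 of 32, where 41.2% of all features passed. In 7 features WT_DSS lay wholly below WT and in 1 wholly above, where 12.8 and 15.5% of all features did so. The 8 of 32 called are a share near that of all features.

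In cKO mice given DSS, Hk2, Slc2a1 and Ddit4 rose relative to cKO, and 0 of the 32 fell, where 14.7% of all features were called (8.07% higher, 6.63% lower). Pfkfb3 also passed the threshold, as a 4th call, but it had reached 1 FPKM only in 3 cKO_DSS libraries and 1 WT_DSS library. It was thus tested only because of the libraries in which it was high, and its call supports nothing. Hk2 rose to 43.4 ± 3.7 FPKM in cKO_DSS, against 23.4 ± 1.79 FPKM in cKO. The median log2 difference was +0.046, against -0.0055 over all features. In 4 features cKO_DSS lay wholly above cKO and in 1 wholly below, where 10.1 and 8.96% of all features did so. Without cKO_DSS 3 and 4, 3 were called, among them Hk2 (+0.78, adjusted p = 0.00077) and Slc2a1 (+0.51, adjusted p = 0.0243), while Ddit4 (+0.30, adjusted p = 0.236) and Pfkfb3 (+0.34, adjusted p = 0.199) missed. In that fit 13.5% of all features were called. The 3rd call there was a feature not called with all 16 libraries, so only Hk2 and Slc2a1 were called in both fits.

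The interaction asks directly whether DSS changed a gene differently in cKO than in WT mice. Hk2 was the 1 feature of 32 called, where 0.151% of all features tested were (0.0453% higher). Its log2 interaction was +0.81 ± 0.12 (SE, adjusted p = 0.0239). Next came Egln3 (+0.97 ± 0.19, adjusted p = 0.053) and Vegfa (+0.70 ± 0.16, adjusted p = 0.0707), which missed. At an unadjusted p under 0.05 there were 15 of 32, where 23.2% of all features passed. The interaction was above 0 in 27 of 32 features, with a median of +0.28, against -0.013 over all features. Without cKO_DSS 3 and 4 the Hk2 interaction was +0.72 (adjusted p = 0.228), where 0 of the 13254 features were called. The Hk2 interaction also missed on leaving out any 1 of WT 2, cKO 4, WT_DSS 1, WT_DSS 2, WT_DSS 4, cKO_DSS 3 and cKO_DSS 4, where its adjusted p was 0.0525 to 0.0811 and its size 0.752 to 0.804. In those fits 0 to 0.0226% of all features were called.

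**Figure D2:**
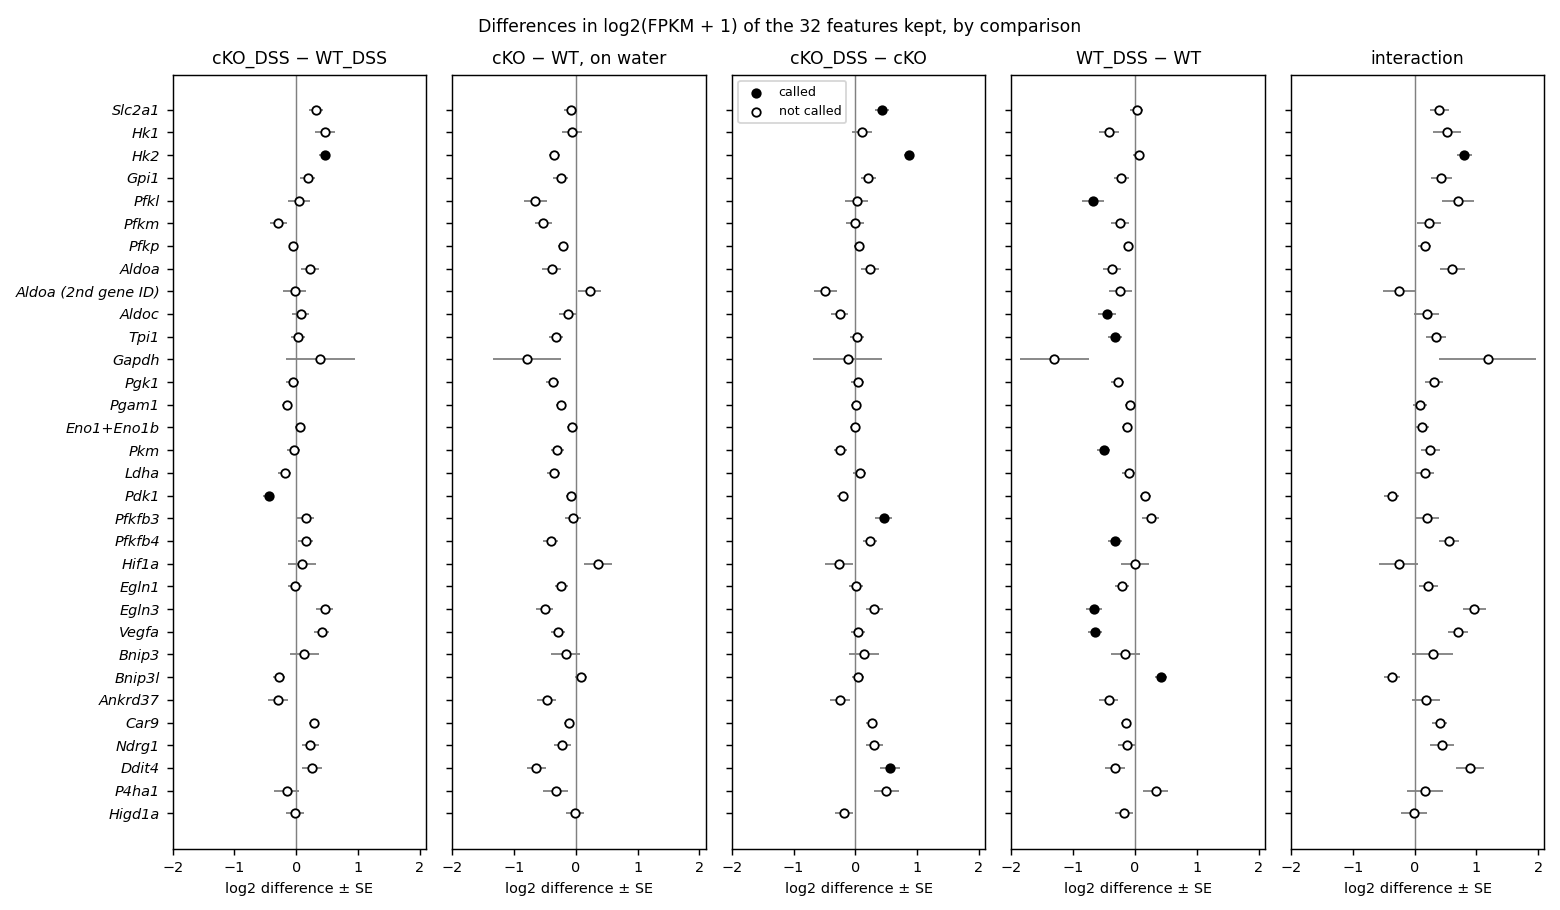
Differences in log2(FPKM + 1) with standard errors for the 32 features (rows) in the 4 comparisons and for the interaction (panels), from limma on 16 libraries. Filled points passed an adjusted p of 0.05. In the panel for cKO against WT on water 29 points lie left of 0 and none is filled, and Hk2 is filled in 3 panels.

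The stretches of DNA before the start sites of 4 genes are shown. These had the smallest p-values of the 32 features between genotypes after DSS: Hk2 and Pdk1, which were called, and Egln3 and Vegfa, which came next but missed. Sequences are the 250 bases before the start site from RefSeq, build GRCm38.p6 (mm10), read 5′ to 3′ on the gene's strand. Capitals mark the letters ACGTG, a form of the core that HIF-1 is known to bind, or CACGT, which is ACGTG on the other strand. The form GCGTG was neither marked nor counted. CACGTG, known to be bound by MYC, counts as a match on each strand.
Hk2 (chr6:82774455-82774704, minus strand): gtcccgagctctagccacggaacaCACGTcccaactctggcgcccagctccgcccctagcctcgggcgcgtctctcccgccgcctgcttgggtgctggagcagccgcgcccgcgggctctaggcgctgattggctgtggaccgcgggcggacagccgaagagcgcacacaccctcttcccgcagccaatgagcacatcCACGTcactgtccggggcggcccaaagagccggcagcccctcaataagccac
Pdk1 (chr2:71872974-71873223, plus strand): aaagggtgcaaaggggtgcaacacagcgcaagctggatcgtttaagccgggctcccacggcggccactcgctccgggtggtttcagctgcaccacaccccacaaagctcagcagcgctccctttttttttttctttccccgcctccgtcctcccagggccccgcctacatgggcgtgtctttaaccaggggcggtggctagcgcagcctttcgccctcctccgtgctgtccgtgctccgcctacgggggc
Egln3 (chr12:54203875-54204124, minus strand): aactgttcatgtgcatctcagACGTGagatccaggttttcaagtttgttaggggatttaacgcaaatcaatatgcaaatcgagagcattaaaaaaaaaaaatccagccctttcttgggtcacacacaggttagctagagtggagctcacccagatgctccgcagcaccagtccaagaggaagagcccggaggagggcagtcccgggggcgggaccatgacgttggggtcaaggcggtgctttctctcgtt
Vegfa (chr17:46032378-46032627, minus strand): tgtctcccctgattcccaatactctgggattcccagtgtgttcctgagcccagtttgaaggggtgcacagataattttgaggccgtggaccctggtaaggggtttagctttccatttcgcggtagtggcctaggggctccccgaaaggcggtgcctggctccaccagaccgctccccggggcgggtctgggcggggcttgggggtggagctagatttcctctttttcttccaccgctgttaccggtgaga
The Hk2 stretch held 2 matches, starting 226 and 52 bases before the start site, both on the other strand. The Egln3 stretch held 1, starting 229 bases before the start site. The windows of Pdk1 and Vegfa did not hold ACGTG or CACGT, though that of Pdk1 holds the unmarked form GCGTG. A RefSeq promoter of 300 bases (250 before the start and 50 after) was matched by symbol for 32 member genes, and 20 of them (62.5%) held ACGTG on either strand. The share was 19.6% of all 32851 promoters and 26.6% of the promoters of 8961 genes that entered the tests. Many members are textbook targets of HIF-1, so this share describes the choice of genes and is not a result of these libraries.

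At the entry of glucose, Slc2a1 codes for GLUT1, the facilitative glucose transporter. The gene lies at chr4:119108711-119137983 in the mm10 build, as all coordinates below, and its level was 53.6, 48.8, 42.6 and 49.1 FPKM in cKO_DSS, 38.8, 36.1, 37.1 and 42.8 in WT_DSS, 33.1, 41.1, 34.6 and 34.5 in cKO and 46.1, 36.8, 37.9 and 32 in WT. All 4 cKO_DSS libraries lay above all 4 cKO libraries, and all but cKO_DSS 3 lay above every WT_DSS library. The log2 difference was +0.43 ± 0.11 (SE, adjusted p = 0.0167) for cKO_DSS against cKO, but missed at +0.39 (adjusted p = 0.0508) without cKO 1. Between cKO_DSS and WT_DSS it was +0.32 ± 0.11 (SE, adjusted p = 0.114). WT_DSS and WT overlapped widely, with a log2 difference of +0.028 ± 0.11 (SE, adjusted p = 0.87).

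Hk2 was called in 3 of the 5 comparisons. The gene lies at chr6:82725025-82774454. It had 40.5, 41, 48.6 and 43.7 FPKM in cKO_DSS, 31.2, 30.5, 32.9 and 30.7 in WT_DSS, 22.6, 25.8, 23.5 and 21.7 in cKO and 26.1, 30.9, 30.7 and 32.8 in WT. Every cKO_DSS library lay above every library of the other groups, and every cKO library lay below every library of the other groups. The log2 difference was +0.46 ± 0.085 (SE, adjusted p = 0.0125) for cKO_DSS against WT_DSS, and +0.86 ± 0.085 (SE, adjusted p = 5.55e-05) for cKO_DSS against cKO. In WT mice it was +0.057 ± 0.085 (SE, adjusted p = 0.638), and on water, for cKO against WT, -0.35 ± 0.085 (SE, adjusted p = 0.124). The rise in cKO_DSS over cKO was called in all 16 fits that left out 1 library, with log2 differences of 0.81 to 0.91. No near-identical copy of Hk2 was found among the annotated transcripts of other genes, and 46066 reads in all libraries were assigned to it.

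Hk1, the more widely expressed hexokinase, had 23.4, 29.3, 35.5 and 34.6 FPKM in cKO_DSS, 22.2, 21.7, 29 and 15.6 in WT_DSS, 27.6, 28.8, 27.6 and 28.1 in cKO and 24, 30.3, 31.6 and 31.8 in WT. Its cKO values lay close together, and those of the DSS groups were spread over a wide range and overlapped. The difference for cKO_DSS against WT_DSS was +0.47 ± 0.16 (SE, adjusted p = 0.113), and for WT_DSS against WT -0.42 ± 0.16 (SE, adjusted p = 0.0611). As a share of the summed FPKM of both hexokinases, Hk2 made up 55.8 to 63.4% in cKO_DSS, 53.1 to 66.3% in WT_DSS, 43.5 to 47.3% in cKO and 49.2 to 52.1% in WT. The shares of both DSS groups overlapped each other and lay above those of both water groups. In WT_DSS 4 the share was highest at 66.3%, and there Hk1 had its lowest level of all libraries.

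Of the genes that turn sugar phosphates into trioses, Pfkl, the liver-type phosphofructokinase that commits sugar to glycolysis, had 20.1, 13.2, 29.3 and 27.6 FPKM in cKO_DSS, 17.4, 21, 21.5 and 24.2 in WT_DSS, 22.1, 21.8, 19.4 and 21.9 in cKO and 37.7, 29.5, 36.6 and 33.2 in WT. All 4 WT libraries lay above the other 12. Within cKO_DSS, libraries 3 and 4 were high and library 2 was the lowest of all 16. Pfkl fell in WT_DSS against WT, with a log2 difference of -0.68 ± 0.18 (SE, adjusted p = 0.0155), and the difference for cKO against WT was -0.66 ± 0.18 (SE, adjusted p = 0.131). Without WT_DSS 1 the first of these missed at adjusted p = 0.0528. The other forms, Pfkm and Pfkp, passed in no comparison. Pfkm stood at 1.12 to 1.71 FPKM in cKO and 2.42 to 2.89 FPKM in WT, without overlap.

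Aldoc, a minor aldolase gene in this tissue, had 2.25, 3.39, 4.3 and 2.93 FPKM in WT_DSS and 4.82, 5.31, 4.39 and 4.27 in WT. WT_DSS 3 was the 1 library that reached into the WT range. Aldoc fell in WT_DSS, with a log2 difference of -0.45 ± 0.14 (SE, adjusted p = 0.0289), and missed without WT 1, WT 2, WT_DSS 1 or WT_DSS 4 (adjusted p up to 0.0971). In cKO_DSS it had 2.36, 3.69, 3.62 and 4.0 FPKM and in cKO 4.59, 3.82, 4.21 and 4.28, a difference of -0.26 ± 0.14 (SE, adjusted p = 0.25). The main aldolase gene, Aldoa, passed in no comparison, and ranged over 238 to 364 FPKM in cKO_DSS, 234 to 324 in WT_DSS, 234 to 268 in cKO and 299.8 to 375 in WT. All cKO values of Aldoa lay below all WT values (-0.39 ± 0.15 SE, adjusted p = 0.2). Its second identifier, a short gene model just before the start of the first, stayed between 0.603 and 2.46 FPKM and was not called either. Gpi1, glucose-6-phosphate isomerase, ranged over 72.3 to 74.2 FPKM in cKO and 77.4 to 99.9 FPKM in WT, with no call in any comparison.

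Tpi1, which interconverts the products of aldolase, had 116, 123, 141 and 155 FPKM in WT_DSS and 147, 161, 169.8 and 189 in WT. WT_DSS 4 lay within the WT range. Its fall in WT_DSS was close to the threshold, with a log2 difference of -0.32 ± 0.11 (SE, adjusted p = 0.0471). It missed on leaving out any 1 of 10 libraries (WT 2 to 4, cKO 1 to 4, WT_DSS 1, WT_DSS 2 and cKO_DSS 4), with adjusted p up to 0.145. In cKO_DSS Tpi1 had 115, 129, 155 and 148 FPKM, and in cKO 131, 133, 134 and 135 FPKM. The cKO values lay within a few FPKM of each other and below all WT values (-0.32 ± 0.11 SE, adjusted p = 0.196).

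In the later steps of the pathway, which yield ATP, Pkm codes for the pyruvate kinase that makes pyruvate. The gene lies at chr9:59656368-59679375 and had 93.6, 106, 123 and 123 FPKM in cKO_DSS, 113, 115, 131 and 99.2 in WT_DSS, 126, 126, 137 and 138 in cKO and 157, 151, 184 and 159 in WT. All WT libraries lay above the other 12. Pkm fell in WT_DSS against WT, with a log2 difference of -0.51 ± 0.11 (SE, adjusted p = 0.00476), and this was called in all 16 fits without 1 library. After a correction for GC content, described below, it was -0.21 (adjusted p = 0.0988). Differences in the other comparisons were -0.25 ± 0.11 (SE, adjusted p = 0.133) for cKO_DSS against cKO, and -0.30 ± 0.11 (SE, adjusted p = 0.192) for cKO against WT. Another annotated gene covers 15.3% of the exonic bases of Pkm, and the counting is not stated to use strand.

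Pgk1 and Pgam1, phosphoglycerate kinase and mutase, were called in no comparison. Pgk1 ranged over 91.7 to 126 FPKM in cKO_DSS, 100.1 to 128 in WT_DSS, 94.8 to 113 in cKO and 125 to 145 in WT. Pgam1 ranged over 72.8 to 94 FPKM in cKO_DSS, 86.2 to 98.1 in WT_DSS, 79.5 to 85 in cKO and 94.5 to 101.2 in WT. Both had all cKO values below all WT values, at log2 differences of -0.37 ± 0.10 (SE, adjusted p = 0.131) for Pgk1 and -0.25 ± 0.080 (SE, adjusted p = 0.166) for Pgam1.

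At the branch of pyruvate, Pdk1 (chr2:71873224-71903858) had 6.03, 6.42, 6.07 and 6.01 FPKM in cKO_DSS, 8.37, 9.19, 8.33 and 8.98 in WT_DSS, 7.57, 7.21, 6.41 and 7.77 in cKO and 8.42, 7.88, 8.38 and 6.19 in WT. The cKO_DSS libraries lay close together and below every WT_DSS library. The log2 difference for cKO_DSS against WT_DSS was -0.45 ± 0.086 (SE, adjusted p = 0.0159). It was -0.21 ± 0.086 (SE, adjusted p = 0.129) for cKO_DSS against cKO, +0.16 ± 0.086 (SE, adjusted p = 0.164) for WT_DSS against WT and -0.076 ± 0.086 (SE, adjusted p = 0.65) for cKO against WT. Its interaction, -0.37 ± 0.12 (SE, adjusted p = 0.126), was 1 of 5 below 0. Ldha was called in no comparison, and had 290.2, 273, 288 and 266 FPKM in cKO_DSS, 294, 307, 284 and 394 in WT_DSS, 248, 255, 284 and 276 in cKO and 339.7, 306, 350.1 and 368 in WT. Its 4 cKO values lay below its 4 WT values (-0.36 ± 0.10 SE, adjusted p = 0.141).

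Pfkfb3 and Pfkfb4 code for enzymes that make and break down fructose 2,6-bisphosphate, the main activator of phosphofructokinase. Pfkfb3 had 0.776, 1.05, 1.28 and 1.19 FPKM in cKO_DSS, 0.848, 0.847, 1.09 and 0.674 in WT_DSS, 0.468, 0.607, 0.486 and 0.466 in cKO and 0.69, 0.852, 0.354 and 0.39 in WT. The cKO_DSS values lay above all cKO values, while WT_DSS and WT overlapped. For cKO_DSS against cKO the log2 difference was +0.46 ± 0.13 (SE, adjusted p = 0.0341), but no library on water reached the 1 FPKM asked for testing, so the call rests on the filter as well. At these low levels the pseudocount of 1 understates the change, and the difference was +0.94 with a pseudocount of 0.1. The call missed without cKO 1, cKO 3, cKO 4, cKO_DSS 2, cKO_DSS 3 or cKO_DSS 4 (adjusted p up to 0.0876).

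Pfkfb4 had 5.7, 4.09, 5.66 and 6.52 FPKM in cKO_DSS, 4.7, 4.41, 4.73 and 5.39 in WT_DSS, 4.08, 3.78, 4.93 and 5.15 in cKO and 5.96, 5.62, 6.86 and 6.62 in WT. Both WT_DSS and cKO lay wholly below WT. It fell in WT_DSS against WT, with a log2 difference of -0.32 ± 0.12 (SE, adjusted p = 0.0493), close to the threshold. The call missed on leaving out any 1 of 12 libraries (WT 1, WT 3, WT 4, cKO 1, cKO 3, cKO 4, WT_DSS 1 to 4, cKO_DSS 1 and cKO_DSS 3), with adjusted p up to 0.123.

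Of the oxygen sensors, Egln3 codes for PHD3, a HIF prolyl hydroxylase whose gene is itself a target of HIF. The gene lies at chr12:54178981-54203860 and had 23.7, 23.5, 23.3 and 19.7 FPKM in cKO_DSS, 13.3, 17.6, 18.3 and 15.6 in WT_DSS, 21.2, 17.8, 19.9 and 13.9 in cKO and 31.1, 26.9, 24.3 and 22.6 in WT. WT_DSS lay wholly below both cKO_DSS and WT, and cKO lay wholly below WT. Egln3 fell in WT_DSS against WT, with a log2 difference of -0.66 ± 0.13 (SE, adjusted p = 0.00398), and was called in all 16 fits without 1 library. The difference between genotypes was +0.46 ± 0.13 (SE, adjusted p = 0.0693) after DSS, and -0.51 ± 0.13 (SE, adjusted p = 0.124) on water. For cKO_DSS against cKO it was +0.31 ± 0.13 (SE, adjusted p = 0.144).

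Hif1a, which codes for the oxygen-regulated subunit of HIF-1, had 25.2, 32.4, 16.6 and 16.3 FPKM in cKO_DSS, 19.2, 24.9, 17.4 and 20.4 in WT_DSS, 24.2, 22.9, 34.9 and 24.9 in cKO and 24, 21.6, 24.8 and 13.3 in WT. The groups overlapped throughout, and HIF-1 is known to be controlled mainly at the level of its protein, which was not measured. The differences ranged from -0.27 ± 0.22 for cKO_DSS against cKO to +0.35 ± 0.22 for cKO against WT, and none passed. Egln1, which codes for PHD2, the main HIF hydroxylase, ranged over 14.6 to 19.2 FPKM in cKO_DSS, 14.3 to 19.2 in WT_DSS, 15.7 to 17.8 in cKO and 18.6 to 23.7 in WT, also with no call.

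Among the genes induced by low oxygen, Vegfa codes for the growth factor that draws in blood vessels. The gene lies at chr17:46016993-46032369 and had 11.8, 10.4, 11.5 and 12.2 FPKM in cKO_DSS, 8.56, 7.83, 9.72 and 7.55 in WT_DSS, 11.1, 12.9, 11.7 and 8.96 in cKO and 13.2, 16, 14.9 and 11.4 in WT. WT_DSS lay wholly below both cKO_DSS and WT, as for Egln3. Vegfa fell in WT_DSS against WT, with a log2 difference of -0.65 ± 0.12 (SE, adjusted p = 0.00189), in all 16 fits without 1 library. For cKO_DSS against WT_DSS the difference was +0.41 ± 0.12 (SE, adjusted p = 0.0614), and for cKO_DSS against cKO +0.046 ± 0.12 (SE, adjusted p = 0.836). The markers of endothelium summed to at most 0.905 FPKM in any library, with none of the 6 kept for testing.

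Bnip3l, which codes for the mitophagy receptor NIX, was the member that rose with DSS in WT mice. The gene lies at chr14:66985239-67008877 and had 20.1, 17.8, 15.5 and 16.3 FPKM in cKO_DSS, 21.3, 22.2, 19.1 and 23.1 in WT_DSS, 14.8, 16.3, 17.9 and 18.3 in cKO and 17.6, 15.3, 14.5 and 15.9 in WT. All WT_DSS values lay above all WT values, while cKO_DSS overlapped both WT_DSS and cKO. The log2 difference was +0.41 ± 0.10 (SE, adjusted p = 0.00728) for WT_DSS against WT, -0.29 ± 0.10 (SE, adjusted p = 0.107) for cKO_DSS against WT_DSS and +0.047 ± 0.10 (SE, adjusted p = 0.799) for cKO_DSS against cKO. Its relative Bnip3 ranged over 0.443 to 2.78 FPKM in the 16 libraries and was called in no comparison.

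Ddit4, known as REDD1, had 16.7, 22.3, 31 and 25.6 FPKM in cKO_DSS, 21.5, 21, 20.5 and 15.3 in WT_DSS, 16.7, 15.3, 12.6 and 17.8 in cKO and 21.7, 25.4, 24.7 and 27.1 in WT. Both cKO and WT_DSS lay wholly below WT, and cKO_DSS 1 lay within the cKO range while the other 3 libraries of its group lay above it. Ddit4 rose in cKO_DSS against cKO, with a log2 difference of +0.56 ± 0.16 (SE, adjusted p = 0.0294). That call missed without cKO 2, cKO 3, cKO_DSS 3 or cKO_DSS 4 (adjusted p up to 0.0905). The difference on water, cKO against WT, was -0.64 ± 0.16 (SE, adjusted p = 0.124).

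Car9 was called in no comparison but had narrow ranges. It stood at 34.1, 35.8, 35.7 and 35.9 FPKM in cKO_DSS, 28.5, 27.9, 25.6 and 33.8 in WT_DSS, 30.7, 27.5, 31.8 and 27.7 in cKO and 32.7, 29.2, 33 and 32.7 in WT. Every cKO_DSS value lay above every value of the other groups, at log2 differences of +0.29 ± 0.085 (SE, adjusted p = 0.0709) against WT_DSS and +0.26 ± 0.085 (SE, adjusted p = 0.0507) against cKO. The 4 remaining oxygen-induced members were called in no comparison either. Ankrd37, an ankyrin repeat gene induced by HIF, ranged over 1.48 to 2.9 FPKM in cKO and 3.2 to 4.13 in WT without overlap. Over all 16 libraries, the stress gene Ndrg1 ranged over 15.6 to 27.2 FPKM, P4ha1, a collagen prolyl hydroxylase gene, over 2.05 to 5.25 FPKM, and Higd1a over 33.4 to 56.5 FPKM.

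**Figure D3:**
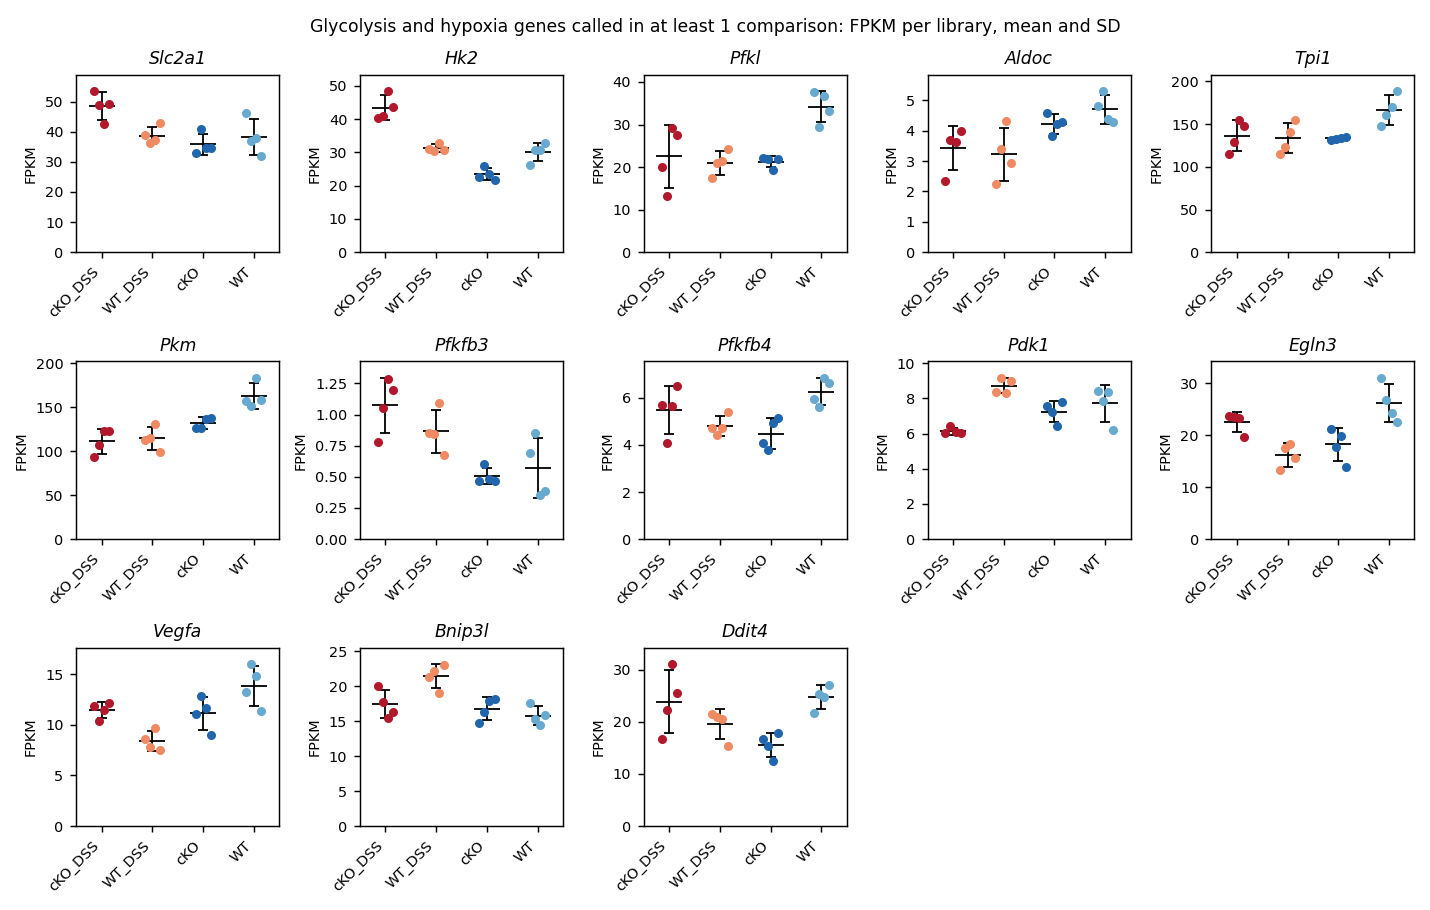
FPKM per library (points), mean (horizontal line) and SD (bars) of the 13 features called in at least 1 comparison, for cKO_DSS, WT_DSS, cKO and WT with 4 libraries each. Each axis starts at 0. Hk2 has its 4 highest values in cKO_DSS and its 4 lowest in cKO, and Pdk1 has all cKO_DSS values under all WT_DSS values.

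By role, the 16 features of glucose entry and glycolysis had a median log2 difference of +0.047 for cKO_DSS against WT_DSS, -0.27 for cKO against WT, +0.023 for cKO_DSS against cKO and -0.26 for WT_DSS against WT. The 9 oxygen-induced features had medians of +0.13 for cKO_DSS against WT_DSS, -0.22 for cKO against WT, +0.14 for cKO_DSS against cKO and -0.16 for WT_DSS against WT. In the glycolytic group 15 of 16 differences lay below 0 on water and 14 of 16 in WT_DSS against WT. In the oxygen-induced group 8 of 9 and 7 of 9 did. These comparisons share the WT libraries, so the medians are not independent of each other.

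Base composition moved with these differences. The members' median GC content was 52.01%, against 49.5% over all features tested, and 26 of 32 lay above that median of all features. Over all genes, the Spearman rho between GC content and log2 difference was +0.375 for cKO_DSS against WT_DSS, -0.523 for cKO against WT, +0.0546 for cKO_DSS against cKO, -0.531 for WT_DSS against WT and +0.586 for the interaction, a description across genes, which share libraries. After a loess correction of each library for GC content, the members' median differences were +0.025 for cKO_DSS against WT_DSS, -0.21 for cKO against WT, +0.065 for cKO_DSS against cKO, -0.097 for WT_DSS against WT and +0.24 for the interaction. Hk2 and Pdk1 were still called for cKO_DSS against WT_DSS (+0.44 and -0.38, adjusted p = 0.00527 and 0.0165), as was the Hk2 interaction (+0.74, adjusted p = 0.0219). Over all features 4.26% were called for that comparison and 0.07% for the interaction. For cKO_DSS against cKO, Hk2, Slc2a1 and Ddit4 were called again, and Pkm was called lower as well (-0.28, adjusted p = 0.0331), where 19.5% of all features were called. Pfkfb3 passed again too, but it was tested only through DSS libraries, so its call supports nothing. Of the 8 called in WT_DSS against WT, Vegfa (-0.59, adjusted p = 0.00286) and Egln3 (-0.59, adjusted p = 0.00935) were called after correction. The other 6 missed: Pfkl at -0.41 (adjusted p = 0.064), Aldoc at -0.36 (adjusted p = 0.072), Pkm at -0.21 (adjusted p = 0.0988), Bnip3l at +0.18 (adjusted p = 0.109), Tpi1 at -0.17 (adjusted p = 0.211) and Pfkfb4 at -0.13 (adjusted p = 0.376). In that setting 20% of all features were called in WT_DSS against WT.

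**Figure D4:**
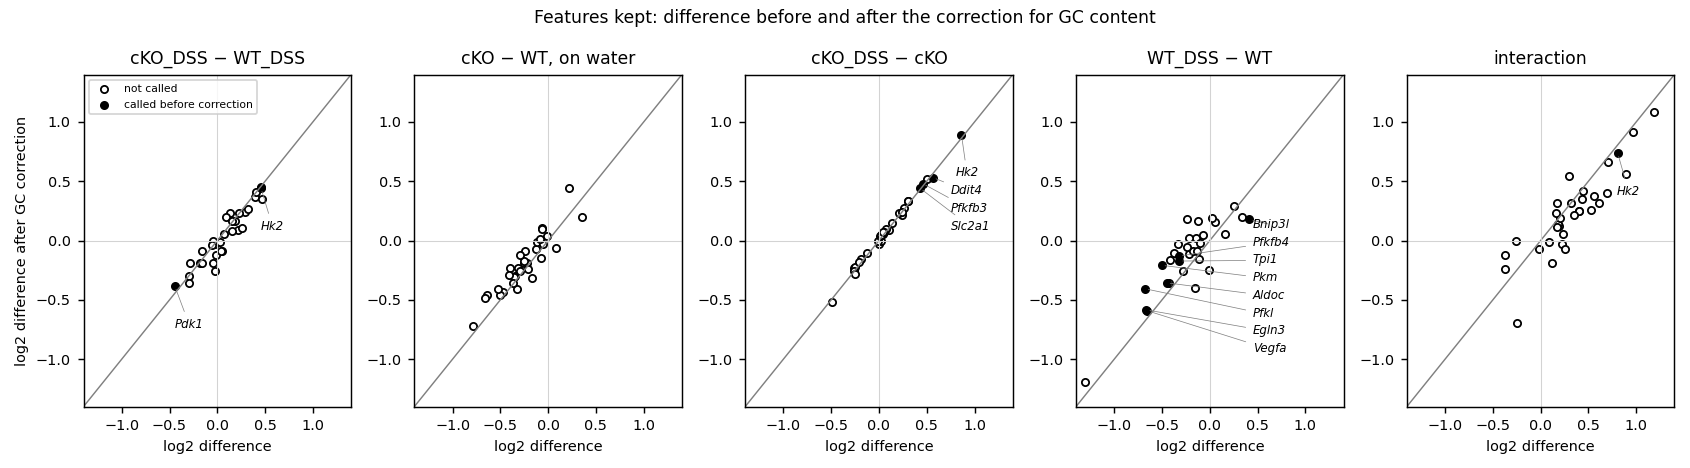
Log2 difference of the 32 features before (horizontal axis) and after (vertical axis) the correction of each library for GC content, in the 4 comparisons and the interaction. Filled points were called before correction and carry names, and the diagonal marks equal values. For cKO_DSS against cKO the points lie close to the diagonal, and for WT_DSS against WT most named points move towards 0.

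Reads of some members cannot be assigned with certainty, since near-identical copies exist elsewhere in the genome. Eno1, the main enolase gene, is 99.48% identical to Eno1b over 1736 bases, so reads can fall to either. Their sum stood at 119.7 to 126 FPKM in cKO_DSS, 115 to 130.1 in WT_DSS, 114 to 131 in cKO and 117 to 141 in WT, and was called in no comparison. The sum leaves out a processed pseudogene, Gm4735, which is 99.62% identical to Eno1 over 1302 bases. Gm4735 held 3252 reads, against 126057 for Eno1 and 11896 for Eno1b, and reached up to 26.6 FPKM. The split between Eno1 and Eno1b was uneven. Eno1b held 3.99 to 17.1% of the summed FPKM in cKO_DSS, 25.7 to 36.9% in WT_DSS, 18.4 to 33.0% in cKO and 12 to 26.9% in WT. Taken apart, Eno1 was higher in cKO_DSS than in WT_DSS (+0.44, adjusted p = 0.0325) and Eno1b lower (-1.65, adjusted p = 0.0226). Eno1 was lower in WT_DSS than in WT (-0.38, adjusted p = 0.0154), and Eno1b lower in cKO_DSS than in cKO (-1.41, adjusted p = 0.0157). All 4 Eno1b shares of cKO_DSS lay below all 4 of WT_DSS, and whether the reads arose from Eno1b itself was not tested.

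Gapdh, the classical reference gene of this pathway, was at 2.87, 2.41, 2.56 and 2.4 FPKM in cKO_DSS, 1.5, 2.02, 1.76 and 1.6 in WT_DSS, 2.91, 2.66, 3.04 and 2.92 in cKO and 1.93, 2.65, 3.67 and 39.8 in WT. WT 4 stood far above every other library. For Gapdh 78 near-identical copies were found, 72 of them with reads, and these reads came to 136.4% of those given to Gapdh. With the reads of the copies added and scaled to the length of Gapdh, the value was 5.63 to 47.8 FPKM. Its level and its comparisons are therefore uncertain. Copies held reads worth 10.4% of those of Bnip3, 5.62% of Bnip3l, 2.42% of Higd1a, 2.29% of Pgam1, 2.02% of Pkm and 1.69% of Tpi1, and under 0.4% for Gpi1, Ldha and Pgk1. With all copies added, the calls of 7 of the 8 features in WT_DSS against WT held, and Tpi1 missed.

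**Figure D5:**
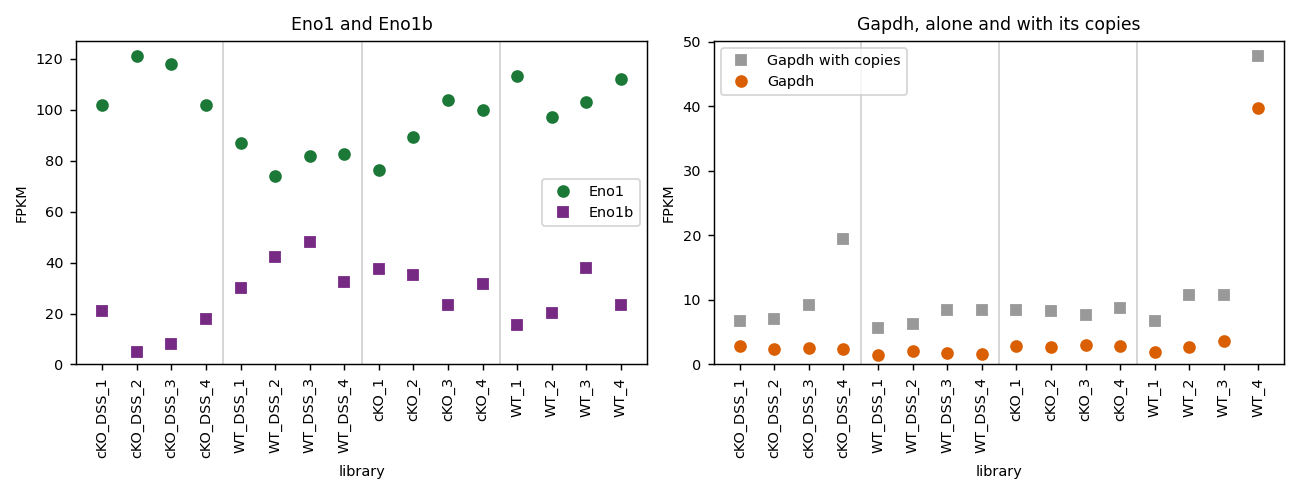
Left, FPKM of Eno1 (circles) and Eno1b (squares) in each of the 16 libraries, in the order cKO_DSS, WT_DSS, cKO and WT. Right, FPKM of Gapdh alone (circles) and with its near-identical copies (squares). Eno1b has its lowest values in cKO_DSS, down to 5.04 FPKM, and Gapdh alone is at 39.8 FPKM in WT 4 and at most 3.67 FPKM elsewhere.

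Other genes of the same pathways were taken from 5 lists. Among the further genes of glycolysis and glucose handling, 22 were tested. Eno3, another enolase gene, fell in cKO_DSS, at 35.6 ± 8.47 FPKM in cKO_DSS and 57 ± 4.82 FPKM in WT_DSS (-0.69 ± 0.17 SE, adjusted p = 0.0362), and was the 1 of the 22 called there, where 3.63% of all features were. In WT_DSS against WT 3 of 22 were called, all lower, where 13.5% of all features were. They included G6pc3, a glucose-6-phosphatase gene (-0.49 ± 0.13 SE, adjusted p = 0.013), and the hexokinase-like gene Hkdc1 (-0.74 ± 0.21 SE, adjusted p = 0.0203). The third was the fructose transporter gene Slc2a5, also called lower in cKO_DSS against cKO. It ranged over 0.15 to 0.485 FPKM in cKO_DSS, 0.405 to 0.651 in WT_DSS, 0.963 to 1.4 in cKO and 0.571 to 2.08 in WT, and it entered the tests only through libraries on water, where it was high, so its calls support nothing. In cKO_DSS against cKO, Pck1, an enzyme of gluconeogenesis, rose (+0.39 ± 0.12 SE, adjusted p = 0.0375), where 8.07% of all features rose.

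Of 17 genes of lactate and pyruvate routes, 4 rose and 3 fell in WT_DSS against WT, where 15% of all features rose and 13.5% fell. Ldhb, the lactate dehydrogenase subunit that favours making pyruvate, had 2.34 ± 0.125 FPKM in WT_DSS and 4.93 ± 0.539 FPKM in WT (-0.83 ± 0.10 SE, adjusted p = 0.000137). Pdk4, another kinase of pyruvate dehydrogenase, had 5.87 ± 1.95 FPKM in WT_DSS and 1.82 ± 0.631 FPKM in WT (+1.26 ± 0.22 SE, adjusted p = 0.00186). Pcx, pyruvate carboxylase, fell (-0.54 ± 0.11 SE, adjusted p = 0.0042), and Dlat, a subunit of pyruvate dehydrogenase, rose (+0.33 ± 0.077 SE, adjusted p = 0.00724). In cKO_DSS against cKO the calls of this list were Pdk4 and Ldhb: Pdk4 rose, at 8.53 ± 1.23 FPKM in cKO_DSS and 3.01 ± 1.19 FPKM in cKO (+1.29 ± 0.22 SE, adjusted p = 0.00166), and Ldhb fell (-0.58 ± 0.10 SE, adjusted p = 0.00153). Over all features 14.7% were called there. Pdp2, a phosphatase that reactivates pyruvate dehydrogenase, was the 1 gene of this list called for cKO_DSS against WT_DSS, and was lower (-0.34 ± 0.088 SE, adjusted p = 0.0445), where 3.63% of all features were called. Among the 7 genes of the pentose phosphate pathway, the transketolase gene Tkt fell in WT_DSS against WT (-0.41 ± 0.12 SE, adjusted p = 0.0185), and no other call was made. Over all features 28.5% were called in WT_DSS against WT.

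Of 12 further genes of the HIF machinery, 3 rose and 1 fell in WT_DSS against WT, a share near the 28.5% of all features called. Cul2 (+0.57 ± 0.13 SE, adjusted p = 0.00767) and Vhl (+0.41 ± 0.11 SE, adjusted p = 0.0167), parts of the ligase that degrades HIF, rose with the coactivator gene Ep300 (+0.29 ± 0.10 SE, adjusted p = 0.046). The hydroxylase gene Egln2 fell (-0.67 ± 0.18 SE, adjusted p = 0.0139). In cKO_DSS against cKO, Epas1, which codes for HIF-2α, rose at 31.6 ± 1.19 FPKM in cKO_DSS and 22.8 ± 1.39 FPKM in cKO (+0.46 ± 0.065 SE, adjusted p = 0.000482), and no other gene of that list was called. Over all features 14.7% were called there. Of 25 further HIF targets, Abcb1a, a drug efflux pump gene, rose in cKO_DSS against WT_DSS at 139.8 ± 15.6 FPKM in cKO_DSS and 89 ± 4.54 FPKM in WT_DSS (+0.64 ± 0.16 SE, adjusted p = 0.0367). So did the carbonic anhydrase gene Car12 (+0.49 ± 0.12 SE, adjusted p = 0.0402). In that comparison 2.0% of all features rose. In WT_DSS against WT 4 of these targets rose and 2 fell, also near the 28.5% of all features called there, among them Nt5e, the ecto-5′-nucleotidase gene (+0.76 ± 0.14 SE, adjusted p = 0.00221), Ero1l, an oxidase of protein folding (+0.60 ± 0.13 SE, adjusted p = 0.00585), the adenylate kinase gene Ak4, which had 0.914 to 1.21 FPKM in WT_DSS and 1.74 to 4.72 in WT (-1.01 ± 0.22 SE, adjusted p = 0.00535) and was tested through the WT libraries in which it was high, and the histone demethylase gene Kdm4b (-0.35 ± 0.10 SE, adjusted p = 0.0151). In cKO_DSS against cKO, Insig2 rose (+0.35 ± 0.11 SE, adjusted p = 0.0475) and Mxi1, a repressor of MYC targets, fell (-0.34 ± 0.088 SE, adjusted p = 0.0185), where 14.7% of all features were called. On water and for the interaction, 0 genes of these 5 lists were called by limma, where 0.0905 and 0.151% of all features were. In WT_DSS against WT the median log2 difference was -0.022 for further glycolysis genes, +0.10 for lactate and pyruvate routes, +0.0061 for the pentose phosphate pathway, +0.12 for the HIF machinery and -0.054 for further HIF targets, beside the -0.22 of the 32 members and the -0.0051 of all features. In cKO against WT on water the medians were -0.11 for further glycolysis genes, -0.019 for lactate and pyruvate routes, -0.17 for the pentose phosphate pathway, +0.13 for the HIF machinery and +0.022 for further HIF targets.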

How the data were processed

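Total RNA of colonic epithelial cells was sequenced in 16 libraries, 4 in each of 4 groups, with groups and replicate numbers taken from the labels. The deposited table gives FPKM made by the authors, with gene positions and lengths. The mm10 build is named in the submitters' processing notes, as are DESeq2 1.20.0 and featureCounts 1.5.0-p3. Per the labels' protocols, reads of low quality and those with adapter or N bases were dropped. Not given in the sources used here are the aligner, the annotation release and whether counting used strand, so overlapping genes may share reads. Other genes cover 26.4% of the exonic bases of Ankrd37, 22.5% of Higd1a, 22.3% of Bnip3, 11.5% of Gpi1 and 10.8% of Pfkm.

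FPKM times gene length came out as whole reads within 0.05 for 100.0% of values, rounded, in each library, which gave back 13911823 to 16414914 reads per library, of which 4.74 to 15.1% were mitochondrial. No libraries of a group agreed within counting noise (lowest chi-square per gene 6.9). Reads carry no molecular identifiers, and these depths bound counting error only.

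log2(FPKM + 1) was fitted in limma 3.58.1 (R 4.3.3) with 4 group means over 16 libraries, and the 5 contrasts were tested with a mean-variance trend and Benjamini-Hochberg adjustment over the 13254 features that reached 1 FPKM in 4 or more libraries. Features with an adjusted p under 0.05 were called. Folds on this scale understate the change of low genes. Full values are given for members called in a comparison or among its 3 smallest p-values, and up to 4 genes are named per further list and comparison. The members and all lists were chosen with earlier results of these data known. Near-identical copies were found with blastn of each member's longest coding transcript against the GENCODE transcripts of other genes in the table, at 95% identity or more over at least 200 bases, so copies outside annotated genes were not looked for. GC content could be given for 97.07% of features, and its correction used a loess span of 0.5 within each library. The main fit was tested on simulated data for WT_DSS against WT. The alternatives and the other contrasts were not. Alternatives covered the pseudocount, low-value filters, other scalings, voom on recovered reads, sample weights, a replicate block, GC content and left-out libraries. Same-numbered libraries were not paired, since their correlations did not all exceed 0.1.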

Additional observations from a re-analysis of the deposited data

Results flagged for a closer look

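In 13 of the 128 groups of 4 libraries looked at, 1 library lay farther from the others than Dixon's 95% limit allows, and chance alone gives about 1 in 20. Pfkl in cKO had 19.38 FPKM in library 3, against 21.81 to 22.11 in the other 3 libraries. Aldoa in WT_DSS had 323.6 FPKM in library 3, against 234.5 to 241.8, and the sum of Eno1 and Eno1b had 130.1 FPKM in the same library, against 114.7 to 116.8. Gapdh in WT had 39.77 FPKM in library 4, against 1.926 to 3.675. Pdk1 in cKO_DSS had 6.422 FPKM in library 2, against 6.01 to 6.065. Pfkfb3 in cKO had 0.6067 FPKM in library 2, against 0.4661 to 0.4861.

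Of the oxygen sensors, Hif1a in cKO had 34.86 FPKM in library 3, against 22.85 to 24.87. Egln1 in WT had 23.69 FPKM in library 1, against 18.58 to 19.17. Egln3 in cKO_DSS had 19.72 FPKM in library 4, against 23.35 to 23.74. Among oxygen-induced genes, Ankrd37 in cKO_DSS had 2.431 FPKM in library 3, against 1.534 to 1.621. Car9 had 34.13 FPKM in cKO_DSS 1, against 35.73 to 35.93 in its group, and 29.21 FPKM in WT 2, against 32.66 to 33.05 in its group. Ddit4 in WT_DSS had 15.29 FPKM in library 4, against 20.46 to 21.48.

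Hk2 was called for the interaction of genotype and DSS, with a log2 interaction of 0.8062 (limma, adjusted p = 0.0239). That call was lost in 7 of the 16 fits that left out 1 library, and without cKO_DSS 3 and 4 (limma, adjusted p = 0.228). Hk2 was higher in 4 of 4 cKO_DSS libraries than in every cKO library, while WT_DSS and WT overlapped.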

How the results depend on the processing

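Of 852 values of 26 member results under alternative settings, 725 kept direction and side of the threshold (medians kept within the spread between libraries), 100 lost the call, 17 gained it, 10 medians moved further and 0 tested values turned sign. The cause was not tested for any of them. The sign of medians was not part of that count, and the median for cKO_DSS against WT_DSS, +0.062, was as low as -0.036 in an alternative. Hk2 in cKO_DSS against cKO, and Vegfa and Egln3 in WT_DSS against WT, kept their calls in every setting run. With sample quality weights the members called numbered 10 for cKO_DSS against WT_DSS, 6 for cKO against WT, 10 for cKO_DSS against cKO and 17 for the interaction. Over all features the weights called 26.3% for cKO_DSS against WT_DSS, 2.07% for cKO against WT, 23.1% for cKO_DSS against cKO and 28.1% for the interaction. Fitting only the groups compared gave 1 for cKO_DSS against WT_DSS and 2 for cKO_DSS against cKO, where 0.724 and 10.5% of all features were called. Taking Eno1 and Eno1b apart gave 4 for cKO_DSS against WT_DSS, where 3.7% of all features were called. For WT_DSS against WT, 5 were called with no filter and 2 with the GC correction, where 8.9 and 20% of all features were. For the interaction, 2 were called with a filter of 5 FPKM, with the median shift and with voom, where 0.596, 0.272 and 0.309% of all features were.

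Leaving out each library in turn gave 0 to 4 members called for cKO_DSS against WT_DSS (0 without WT_DSS 2, 1 without cKO_DSS 3, and 4 without WT_DSS 3 or cKO_DSS 1). It gave 0 to 1 for cKO against WT, and 2 to 5 for cKO_DSS against cKO (2 without cKO 1, cKO 3, cKO_DSS 3 or cKO_DSS 4). It gave 4 to 10 for WT_DSS against WT (4 without WT_DSS 1), and 0 to 8 for the interaction (3 without WT_DSS 3, 4 without cKO_DSS 1, 8 without cKO_DSS 2). The interaction was called in 0.943% of all features without WT_DSS 3, 2.93% without cKO_DSS 1 and 9.33% without cKO_DSS 2. For cKO_DSS against WT_DSS, 4.32% were called without WT_DSS 3, 6.66% without cKO_DSS 1, 0.589% without WT_DSS 2 and 0.807% without cKO_DSS 3. Shares of all features in the fits without 1 library were 16.9 to 32.1% for WT_DSS against WT. They were 9.84 to 16.2% for cKO_DSS against cKO and 0.0151 to 0.837% for cKO against WT. Without cKO_DSS 3 and 4 together, 0 were called for cKO_DSS against WT_DSS and 0 for the interaction, where 0.249 and 0% of all features were. Settings chosen after seeing the data were the covariate, the added copies and 2 further sets of left-out libraries. Without WT 4 and WT_DSS 2, 5 were called for WT_DSS against WT and 0 for the interaction. That fit called 11 and 0% of all features. Without WT 3, cKO 3 and cKO 4, 4 were called for WT_DSS against WT, 1 for cKO_DSS against cKO and 0 for the interaction. Over all features 13.4, 4.29 and 0% were then called. With the Y-linked covariate, 4 were called for WT_DSS against WT and 1 for cKO_DSS against cKO, where 16.1 and 4.08% of all features were.

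With the replicate number as a block, 2 were called for cKO_DSS against WT_DSS, 0 for cKO against WT, 3 for cKO_DSS against cKO, 9 for WT_DSS against WT and 1 for the interaction. Over all features that setting called 3.2, 0.0151, 14.3, 29.1 and 0.0981% in the same order of comparisons. With the block and the GC correction the member counts in that order were 3, 0, 6, 2 and 1. Over all features 3.49, 0.101, 18.9, 19.7 and 0.0311% were then called. Same-numbered libraries correlated at -0.2 to 0.3 over the 4 comparisons, so the numbers do not pair them.

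The Rictor difference for cKO_DSS against WT_DSS passed with quality weights at -0.511, and ranged from -0.491 to -0.318 on leaving out 1 library. It passed without WT_DSS 3 (adjusted p = 0.037) and without cKO_DSS 1 (adjusted p = 0.0432), and was -0.25 (adjusted p = 0.491) without cKO_DSS 3 and 4. For cKO against WT it passed in no setting, at -0.261 with the GC correction and -0.21 to -0.0822 on leaving out 1 library. For WT_DSS against WT it passed with weights at 0.266 and without WT_DSS 3 (0.375, adjusted p = 0.0296), with a range of 0.202 to 0.375, and was 0.0645 with the GC correction. For cKO_DSS against cKO, 0.00947, it lay below 0 under voom (-0.00643), weights (-0.0736), the covariate (-0.0272), without WT 3, cKO 3 and cKO 4 (-0.0203) and on leaving out 1 library (-0.0528 to 0.0939).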
